A study of Mus musculus with 14 samples.

Results

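The regions described here are stretches of open chromatin that lay away from the ends of protein-coding genes and that carried a peak in each of the 14 ATAC-seq peak lists of a study of mouse neural stem cells (mNSCs). Peaks of all lists on chromosomes 1 to 19 were merged where they shared at least 1 bp, which gave 123745 regions. Of these, 5072 were overlapped by a peak of every list, and 1213 of the 5072 lay more than 1 kb from both ends of every protein-coding gene in the RefSeq annotation of mm10. These 1213 are called distal regions. The other 3859 of the 5072 are called gene-end regions, and 107153 regions were distal but had a peak in fewer than 14 lists. The members were chosen by the presence of a peak in every list and by distance from gene ends, so neither is a finding.

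ATAC-seq marks open chromatin by the insertions of the Tn5 transposase, and here each of 7 groups had 2 libraries of 50000 cells. ZR denotes mNSCs with ZFTA-RELA, the fusion of a zinc finger protein with an NF-kB subunit that drives a form of ependymoma. EV denotes mNSCs with empty vector. ZR_GSK343 denotes fusion cells given GSK343, an inhibitor of the histone methyltransferase EZH2, at 10 µM for 96 h, and ZR_dmCitra denotes fusion cells whose title names dmCitra and whose treatment label names 10 mM citraconate, described by the submitters as an ACOD1 antagonist. ZR_DMSO denotes fusion cells whose title names the vehicle DMSO but whose treatment label names PBS. The PBS label is shared by the ZR libraries and EV replicate 2, whereas EV replicate 1 carries a DMSO label. In the second library series, Citraconate_50K carries a fusion cell line label with 10 mM citraconate, and DMSO_50K an empty-vector label with DMSO, and the 2 labels change together, so that they cannot be told apart. At many regions called between ZR and EV the DMSO_50K ranks lay nearer to ZR than to EV, as given below. Those regions were chosen by their ranks in ZR and EV, so this cannot tell which cells the libraries hold. The ZR_DMSO lists stood apart from the rest by their small size. The protocol names 24 h and 48 h of citraconate without assigning either to a library. Nothing in the labels says that the 2 libraries of a group came from separate cultures, so that p-values measure only the spread between libraries, which may be technical.

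Sites of open chromatin found in almost every cell state are often promoters of broadly used genes, since RNA polymerase and its factors keep them free of nucleosomes. Away from promoters, open sites include enhancers, where transcription factors bind and which differ more between cell types, and insulators bound by CTCF. Many genes also have internal start sites, and non-coding RNAs have starts of their own, so a site far from a gene's annotated end need not be an enhancer.

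The name distal was therefore checked against RefSeq start windows, which run from 250 bases before to 50 bases after an annotated transcript start. A window lay in 389 of the 1213 distal regions (32.1%). The share was 20.7% of the 1157 distal regions found in 13 lists and 0.784% of the 45269 found in 1 list, and it was 82.6% of the gene-end regions. Windows of protein-coding genes lay in 304 members and those of long non-coding RNA (lncRNA) genes in 127, with 42 holding both. In 279 of the 389 (71.7%), the start belonged to the gene whose end was nearest, so that it was an internal start of that gene. Many of the regions called distal thus held an annotated start; they are called start-bearing below and the other 824 start-free, a division chosen after the data were seen.

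**Figure D1:**
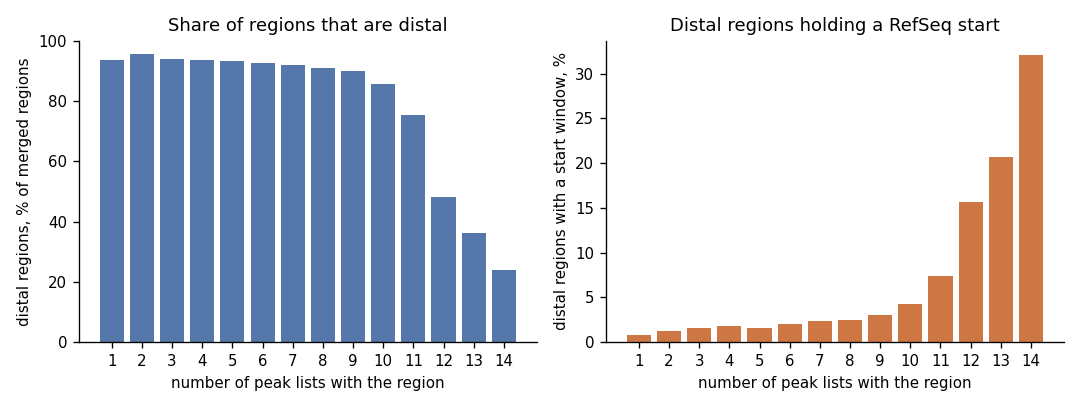
Left, the percentage of merged regions that were distal (y axis) by the number of peak lists holding the region (x axis, 1 to 14). Right, the percentage of those distal regions that held a RefSeq start window. The distal share is 93.7% among regions of 1 list and 23.9% among regions of 14 lists, while the share with a start is 0.784% and 32.1%.

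The start windows inside distal regions were richer in CpG than RefSeq start windows at large, and less so than those in gene-end regions. Over 545 windows of 437 genes the median ratio of observed to expected CpG was 0.770, against 0.389 over all 31396 windows in the table, and the median GC content was 63.7% against 53.0%. The GC box, GGGCGG, the binding site of SP1 and related factors, was found on either strand in 66.2% of the windows in distal regions and in 36.0% of all windows. The NRF1 motif was in 11.2% against 4.68%. The CCAAT box, CCAAT, differed little, at 36.7% against 37.3%, and the AP-1 motif TGANTCA was in 6.06% against 7.84%. In the 4615 windows of gene-end regions found in every list, the CpG ratio was 0.837, and the GC box was in 74.5%, the NRF1 motif in 14.2% and the CCAAT box in 44.3%. These motifs were searched as exact letters on both strands with overlapping matches counted, and a match is a description of the letters only.

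The start windows of 4 members that recur in the results are shown from RefSeq (build GRCm38.p6), each 5′ to 3′ on its gene's strand, with the GC box, NRF1, CCAAT and AP-1 letters in capitals (CCGCCC and ATTGG are the GC box and the CCAAT box read from the other strand). They range from a CpG-rich window with repeated GC boxes and NRF1 letters (Spin1) to one poor in CpG with a single match each to the GC box, CCAAT and AP-1 letters (Fgd4).
Ptch1, chr13:63565686-63565985, minus strand: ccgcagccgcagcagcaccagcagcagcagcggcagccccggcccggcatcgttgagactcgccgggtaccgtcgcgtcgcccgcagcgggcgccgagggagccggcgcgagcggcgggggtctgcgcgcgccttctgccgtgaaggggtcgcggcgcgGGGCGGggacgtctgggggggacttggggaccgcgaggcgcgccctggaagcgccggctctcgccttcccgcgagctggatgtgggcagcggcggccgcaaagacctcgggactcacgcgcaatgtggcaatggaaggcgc
Spin1, chr13:51100630-51100929, plus strand: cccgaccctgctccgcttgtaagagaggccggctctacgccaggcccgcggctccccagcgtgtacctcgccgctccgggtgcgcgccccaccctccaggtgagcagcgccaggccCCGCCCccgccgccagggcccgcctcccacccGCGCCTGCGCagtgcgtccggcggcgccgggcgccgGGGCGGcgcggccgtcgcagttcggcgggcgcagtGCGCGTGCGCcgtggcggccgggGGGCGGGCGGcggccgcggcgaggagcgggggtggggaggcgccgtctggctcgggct
Fth1, chr19:9982396-9982695, plus strand: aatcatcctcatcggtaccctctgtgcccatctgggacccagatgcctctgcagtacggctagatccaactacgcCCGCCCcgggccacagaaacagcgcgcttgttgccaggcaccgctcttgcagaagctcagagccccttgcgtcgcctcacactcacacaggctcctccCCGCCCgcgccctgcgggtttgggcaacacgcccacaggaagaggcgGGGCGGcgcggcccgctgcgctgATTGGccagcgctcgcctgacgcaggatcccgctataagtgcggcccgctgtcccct
Fgd4, chr16:16560170-16560469, minus strand: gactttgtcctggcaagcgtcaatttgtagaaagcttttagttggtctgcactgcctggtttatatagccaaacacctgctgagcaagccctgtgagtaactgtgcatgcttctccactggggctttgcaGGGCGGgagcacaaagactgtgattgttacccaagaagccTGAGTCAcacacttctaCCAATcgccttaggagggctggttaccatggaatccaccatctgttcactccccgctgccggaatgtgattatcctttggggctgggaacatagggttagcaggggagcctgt

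In all, 5 members overlapped a microRNA gene. The mature sequences of 4 microRNAs among them that are well known in neural cells are shown from RefSeq, with the seed, bases 2 to 8, in capitals. Together they show that miR-132-3p and miR-212-3p, which lay in 1 member near Ovca2, share the seed AACAGUC.
mmu-miR-9-5p, chr7:79505279-79505301, plus strand: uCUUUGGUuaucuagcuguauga
mmu-miR-132-3p, chr11:75173723-75173744, plus strand: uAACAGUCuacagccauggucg
mmu-miR-212-3p, chr11:75173443-75173464, plus strand: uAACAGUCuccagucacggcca
mmu-let-7i-5p, chr10:122985698-122985719, minus strand: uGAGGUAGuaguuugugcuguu

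Distal regions lay at a median of 16035 bp from the nearest end of a protein-coding gene, and 144 lay more than 100 kb away. A protein-coding gene covered 648 of them (53.4%), 248 (20.4%) overlapped another annotated gene alone, and 317 (26.1%) were outside every annotated gene. A tRNA gene was overlapped by 20 members, an rRNA gene by 12 and an snRNA gene by 8. Chromosome 4 held 19 members (1.57%) and chromosome 2 held 152 (12.5%), of which a part stood in dense groups.

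Most members stood alone, with no other member within 20 kb (989 of 1213), but 96 were packed into 7 groups of at least 5. The largest groups were 2 neighbouring ones on chromosome 2, of 24 members over 191 kb near Gm14410 and of 20 members over 132 kb near Zfp970. Others were 15 members over 144 kb near Gm21119 and 6 near Defb33 on chromosome 8, 14 over 99.7 kb near Sfi1, a centrosome gene on chromosome 11, and 5 near Cd244a on chromosome 1. A further group of 12 members over 86.4 kb, with Gas8 as its most frequent nearest gene, lay over 48 annotated rRNA genes of the 5S type. Reads from near-identical copies cannot be told apart, and no source used here says how the authors treated such reads, so values inside these groups are uncertain.

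A few distal regions carried very tall peaks. The measure is the fold enrichment of a peak over background that the authors deposited; where a library had several peaks in a region, the tallest was used. The median fold over the 14 libraries was 100 or more in 37 distal regions (3.05%) and in 11 gene-end regions (0.285%), and 2 of the 37 held a start window. The tallest, chr2:98666237-98667336, lay 1035 kb from the nearest gene end, that of Lrrc4c, and its fold ranged from 2615 to 6195 with a width of 1096 to 1100 bp in every library. A pair of shorter regions within 5 kb of it had median folds of 974 and 610. On chromosome 9, chr9:3000000-3038396 had a median fold of 1406 and a median width of 38302.5 bp, the widest of the named members. The region nearest to Tubb3, a neuronal tubulin gene, spanned 8730 bp with a median fold of 363. These regions ranked at or near the top in every library, and the part of repeated sequence in them was not tested.

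Widths in the libraries show how far 1 group stood apart. The median width of the tallest peak in a distal region was 1043 and 992 bp in ZR, 813 and 916 bp in EV, 475 and 852 bp in ZR_GSK343, 1109 and 1038 bp in ZR_dmCitra, 309 and 325 bp in ZR_DMSO, 955 and 848 bp in Citraconate_50K, and 1041 and 1228 bp in DMSO_50K. Both ZR_DMSO libraries lay below all others, and ZR_GSK343 replicate 1 was the next lowest. Their lists were also the shortest, with 12554 and 21143 peaks in ZR_DMSO and 19513 in ZR_GSK343 replicate 1, against 29574 to 60472 in the other 11. The median fold over the distal regions was 8.44 and 9.66 in ZR_DMSO and 8.55 in ZR_GSK343 replicate 1, against 16.1 to 35.6 elsewhere. Of the 1157 distal regions found in 13 lists, 489 lacked a peak in ZR_GSK343 replicate 1 and 449 in ZR_DMSO replicate 1, so those 2 lists largely set the number of members. The regions just outside the threshold were narrower, with library medians of 216 to 1040.5 bp for distal regions in 13 lists, against 309 to 1228 bp for those in 14.

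Distal peaks were narrower than gene-end peaks in 14 of 14 libraries. The ratio of the medians was 0.817, averaged over the 7 groups (two-sided exact sign-flip test over group means, p = 0.0156, the smallest it can give). For start-free against gene-end regions the ratio was 0.733 (exact sign-flip p = 0.0156). Start-bearing distal regions were 1.35 times as wide as start-free ones, wider in 13 of 14 libraries (exact sign-flip p = 0.0313). The exception was ZR_DMSO replicate 1, with medians of 286 bp for start-bearing and 319 bp for start-free regions. The spread of summits, taken as the range of summit positions between the libraries of a group, did not differ detectably between distal and gene-end regions (ratio 0.984, exact sign-flip p = 0.719). It was 1.13 times as large in start-bearing as in start-free regions (exact sign-flip p = 0.0313). Over all 14 libraries the summits of a distal region ranged over a median of 230 bp, and in 159 members (13.1%) they fell within 100 bp.

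**Figure D2:**
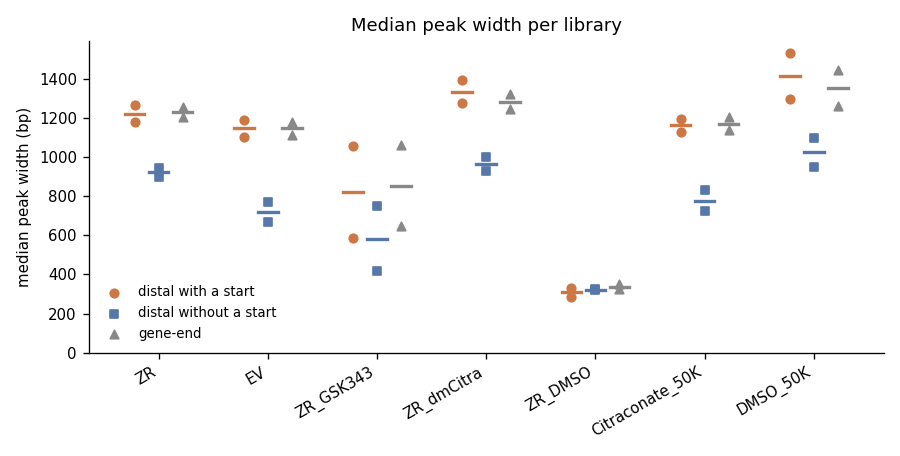
Median width in bp (y axis) of the tallest peak per region in each of the 14 libraries, by group (x axis), for start-bearing distal, start-free distal and gene-end regions. Points are libraries and bars are means of 2. Start-free regions are narrowest in 6 groups, while all 3 kinds lie between 286 and 350 bp in ZR_DMSO.

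Ranks in whole lists are hard to compare because the lists differ in length. Within its own list, the median percentile of a distal region was 89.9 and 89.995 in ZR against 82.8 and 86.3 in EV. It was 74.996 and 91.2 in ZR_GSK343 and 89.6 and 89.6 in ZR_dmCitra, against 69.1 and 78.5 in ZR_DMSO. In Citraconate_50K it was 84.7 and 83.7, against 90.2 and 90.7 in DMSO_50K. The lists with the fewest peaks gave the lowest values, and ranks from lists of different lengths show no change. Ranks were therefore also taken among the 5072 regions found in every list, so that each library ranks the same regions by fold; this percentile, from 0 to 100, is called the rank below. It says where a region stands among the others of its library and not how open it is.

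By that rank, distal regions stood below gene-end regions in 12 of 14 libraries, higher in ZR_DMSO replicate 1 and equal in ZR_DMSO replicate 2. The difference of the medians averaged -14.4 (SD 9.63 over 7 groups, exact sign-flip p = 0.0313). Start-bearing regions kept to a narrow band, with library medians of 43.1 to 51.3. Start-free regions did not, with library medians as low as 17.2 in ZR_GSK343 replicate 2 and as high as 59.9 in ZR_DMSO replicate 1. The gap between the 2 kinds, start-bearing minus start-free, was 11.2 and 12.3 in ZR against 24.7 and 26.9 in EV. In ZR_GSK343 it was 17.1 and 30.9 and in ZR_dmCitra 10.04 and 12.5, against -14.4 and -11.1 in ZR_DMSO. In Citraconate_50K it was 16.1 and 20.5, against 5.49 and 2.94 in DMSO_50K. Within each of the 4 comparisons the 2 groups did not overlap. However, 2 libraries against 2 can give no exact permutation p below 0.333, which each comparison reached.

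**Figure D3:**
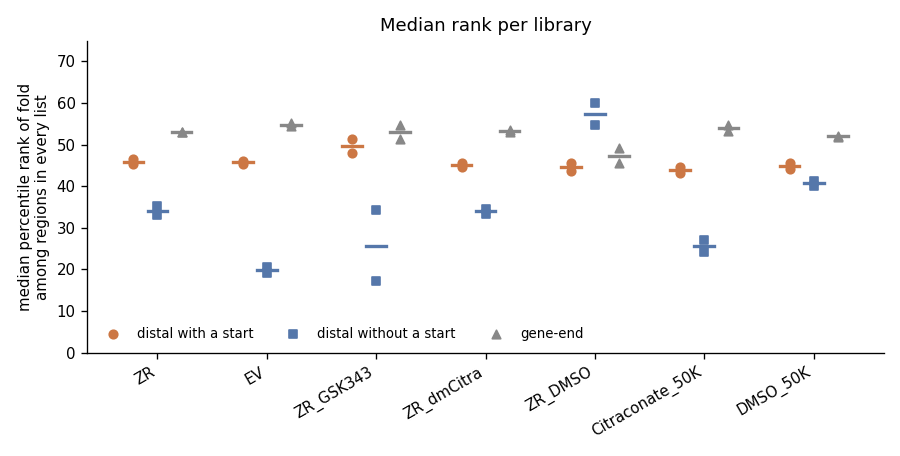
Median percentile rank of fold among the 5072 regions in every list (y axis, 0 to 75 shown) in each of the 14 libraries, by group (x axis). Points are libraries and bars are means of 2. Start-bearing regions stay between 43.1 and 51.3, while start-free regions range from 17.2 to 59.9.

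To find the single regions behind these shifts, the ranks were turned into normal scores and fitted with limma over all 14 libraries and 5072 regions, with Benjamini-Hochberg adjustment over the 5072. A call is an adjusted p under 0.05, and a region called higher or lower moved its place among the others, not necessarily its level. In each comparison the groups also differed in overall signal. The median fold over distal regions was 32.0 and 31.7 in ZR against 20.2 and 24.3 in EV. It was 8.55 and 22.2 in ZR_GSK343 and 29.1 and 28.7 in ZR_dmCitra, against 8.44 and 9.66 in ZR_DMSO, and 16.1 and 17.8 in Citraconate_50K against 31.8 and 35.6 in DMSO_50K. The part of that difference in the calls was not tested.

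Between ZR and EV, which asks what the fusion changes, 220 of the 1213 distal regions were called higher and 109 lower, 27.1% together. Of all 5072 regions, 10.6% were called higher and 8.28% lower, 18.9% together. The 329 calls dropped to 147 without ZR replicate 1, 165 without ZR replicate 2, 179 without EV replicate 1 and 157 without EV replicate 2, and where a peak had to cover 50% of the region, which left 101 members, 13 were called higher and 31 lower. Start-free regions made up most of them, with 185 called higher and 84 lower of 824, whereas 35 were called higher and 25 lower of the 389 start-bearing ones. The library medians of start-free regions averaged 34.1 ± 1.60 in ZR and 19.95 ± 1.03 in EV, a difference of 14.2 rank points (SD, 2 libraries each; exact permutation p = 0.333). The median change of a single start-free region was smaller, at 0.624, with quartiles of -6.50 and 21.6, so the shift rested on a part of the regions. Inside protein-coding genes it was larger: 93 of 326 start-free regions were called higher and 30 lower, with a median change of 8.29.

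The largest rises in rank in ZR stood in or near genes of varied roles. A region inside Esrrg, which encodes an oestrogen-related nuclear receptor, at chr1:187910371-187911620, ranked at 93.2 and 95.9 in ZR against 13.2 and 6.63 in EV, with folds of 80.4 and 89.8 in ZR against 13.9 and 12.2 in EV. The groups lay far apart (score difference 2.92 ± 0.231 SE, limma adjusted p = 2.95e-05). The region near Cd244a, a receptor gene of immune cells, ranked at 86.9 and 88.8 in ZR against 0.729 and 1.71 in EV (limma adjusted p = 3.61e-05), and belongs to the dense group on chromosome 1. Further rises of the same kind were inside St6galnac3, a sialyltransferase gene, at 88.1 and 88.3 in ZR against 0.729 and 4.54 in EV, and near Sh3glb1, at 85.1 and 82.2 in ZR against 4.71 and 0.522 in EV. These regions were among the lowest of the 5072 in EV and in the upper part in ZR. They were named for the largest differences, so these places are not a finding. Inside Tmcc3 the ranks were 82.8 and 70.5 in ZR against 0.729 and 0.108 in EV.

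The 5 largest falls in ZR lay outside protein-coding genes, where 54 of the 84 start-free regions called lower also lay. Of all 1213 members, 648 (53.4%) were inside such a gene. The region near Gm7697 ranked at 4.18 and 2.96 in ZR against 97.1 and 96.2 in EV (limma adjusted p = 0.000704). Near Btbd16 the ranks were 6.82 and 15.5 in ZR against 96.6 and 95.04 in EV, and near Scaf8 they were 20.04 and 34.3 in ZR against 98.4 and 98.9 in EV. The Btbd16 region was narrow and nearly fixed in place, 206 to 232 bp wide in every library. Its rank was 98.5 and 95.8 in ZR_GSK343, 98.4 and 98.5 in ZR_DMSO and 98.3 and 98.3 in Citraconate_50K, but 29.1 and 37.7 in ZR_dmCitra and 32.7 and 19.9 in DMSO_50K. The region near Mc2r, 208 to 252 bp wide, ranked at 8.92 and 27.9 in ZR against 91.02 and 95.2 in EV and was likewise above 98 in ZR_GSK343, ZR_DMSO and Citraconate_50K. Both regions were high in the 4 groups with the lower median folds given above, and the part of overall signal in that was not tested. On chromosome 4, 7 of 19 members were called lower and 1 higher.

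GSK343, which asks what EZH2 inhibition changes in fusion cells, gave 119 distal regions called higher and 344 lower than in ZR_DMSO, 38.2% together, while 17.2% of all 5072 regions were called higher and 16.6% lower, 33.8% together. Of start-free regions 41 were called higher and 295 lower, and of start-bearing ones 78 higher and 49 lower. The start-free median rank was 25.7 ± 12.05 in ZR_GSK343 and 57.3 ± 3.69 in ZR_DMSO, and the start-bearing one was 49.7 ± 2.25 in ZR_GSK343 and 44.6 ± 1.35 in ZR_DMSO (SD, n = 2 each). The difference in direction between the 2 kinds was not seen against ZR in place of ZR_DMSO. There 206 start-free regions were called higher and 265 lower, and 49 start-bearing ones higher and 63 lower, 255 and 328 in all. The limma p-values rest on 1 estimate of the spread over all 7 groups. They do not measure the spread of the 2 unlike ZR_GSK343 libraries (19513 and 57634 peaks) alone. Fitted on the 4 libraries of this comparison alone, limma called 0 regions (347 of the 1213 had an unadjusted p under 0.05).

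Of the 119 distal regions called higher with GSK343, 78 were start-bearing, and so were 4 of the 5 largest rises. The Spin1 region, over the CpG-rich starts of a histone-reader gene, ranked at 86.6 and 88.7 in ZR_GSK343 against 9.78 and 13.04 in ZR_DMSO (score difference 2.37 ± 0.245 SE, limma adjusted p = 9.21e-05). The Fth1 region, over a start of the ferritin heavy chain gene, ranked at 70.96 and 60.9 in ZR_GSK343 against 3.72 and 3.795 in ZR_DMSO (limma adjusted p = 0.000285). Both regions were named for large differences between groups that did not overlap, so that separation is not a finding. In ZR the ranks were 33.1 and 35.6 at Spin1 and 17.97 and 26.6 at Fth1. The let-7i region near Mon2, chr10:122983745-122986980, ranked at 81.4 and 89.7 in ZR_GSK343 against 9.78 and 37.8 in ZR_DMSO (limma adjusted p = 0.000998). let-7 microRNAs are known for rising as progenitors differentiate. The miR-9 region near Polg, over a microRNA of neural progenitors, was at 45.4 and 29.8 in ZR_GSK343 against 9.78 and 3.795 in ZR_DMSO (limma adjusted p = 0.00297). The miR-132 and miR-212 region near Ovca2 was not called there, at 22.7 and 9.099 in ZR_GSK343 against 9.78 and 7.77 in ZR_DMSO, but it was lower in ZR, at 1.104 and 1.63 in ZR against 25.7 and 8.67 in EV (limma adjusted p = 0.0117). With GSK343, 2 of the 5 members over a microRNA gene were called higher and 1 lower. They are too few to set against the shares of all members.

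Of the 344 distal regions called lower with GSK343, 295 were start-free, and so were 4 of the 5 largest falls. These 5 stood high in ZR_DMSO, which a choice by the largest falls favours. Inside Lrrk2, which encodes a kinase mutated in Parkinson's disease, the region ranked at 9.01 and 4.95 in ZR_GSK343 against 93.04 and 94.1 in ZR_DMSO, with 93.2 and 94.5 in ZR. Its folds were 6.22 and 13.3 in ZR_GSK343 against 16.4 and 20.8 in ZR_DMSO (score difference -3.01 ± 0.21 SE, limma adjusted p = 2.8e-05). The ranks lay far apart, while the folds of the groups were closer. Near Ptgfr, a prostaglandin receptor gene, the ranks were 1.46 and 7.21 in ZR_GSK343 against 84.5 and 88.4 in ZR_DMSO, and inside Cdh26, a cadherin gene, 5.84 and 0.128 in ZR_GSK343 against 77.1 and 89.5 in ZR_DMSO. The Fgd4 region is the start-bearing one of the 5, and its window above is poor in CpG (ratio of observed to expected 0.25). It ranked at 0.453 and 3.48 in ZR_GSK343 against 82.5 and 91.1 in ZR_DMSO. Near Sall3, a developmental transcription factor gene, the ranks were 3.22 and 3.11 in ZR_GSK343 against 82.5 and 91.8 in ZR_DMSO.

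Citraconate in fusion cells was set against ZR_DMSO in the same way and gave 64 distal regions called higher and 249 lower, 25.8% together, while 6.11% of all 5072 regions were called higher and 7.73% lower, 13.8% together. The 313 calls dropped to 125 without ZR_dmCitra replicate 1 and to 134 without its replicate 2. Of the 249, 230 were start-free. The dense groups weighed heavily: 61 of their 96 members were called lower and 1 higher, and in ZR_GSK343, set against the same ZR_DMSO libraries, 19 were called lower and 0 higher. The 12 members over 5S rRNA genes had median ranks of 1.80 and 3.13 in ZR_dmCitra against 84.5 and 81.2 in ZR_DMSO, and 12 of 12 were called lower. In ZR their median ranks were 1.28 and 1.61 and in EV 2.96 and 3.64. ZR_DMSO thus stood apart at these members, together with ZR_GSK343 replicate 1 at 59.4.

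Against the ZR libraries in place of ZR_DMSO, limma called 4 distal regions, all lower in ZR_dmCitra, and 5 of the named falls turned round to small values of the other sign. One of them, inside Dock2, a gene of leukocyte migration, ranked at 1.63 and 4.85 in ZR_dmCitra against 97.003 and 95.2 in ZR_DMSO, with 3.16 and 1.63 in ZR. The region over the start of Stim1, the calcium sensor of the endoplasmic reticulum, was higher than in ZR_DMSO, at 70.1 and 76.2 in ZR_dmCitra against 18.3 and 25.4 in ZR_DMSO, with 45.4 and 40.6 in ZR (limma adjusted p = 0.00408 against ZR_DMSO). A zinc finger gene, Rslcan18, held a region at 85.7 and 81.8 in ZR_dmCitra against 18.3 and 13.04 in ZR_DMSO, with 76.1 and 72.8 in ZR. The ZR ranks thus lay near those of ZR_dmCitra at Dock2 and Rslcan18, and between the groups at Stim1. Inside Kif21b, a neuronal kinesin gene, the ranks were 57.9 and 53.1 in ZR_dmCitra against 9.78 and 3.795 in ZR_DMSO, with 21.1 and 30.7 in ZR.

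**Figure D4:**
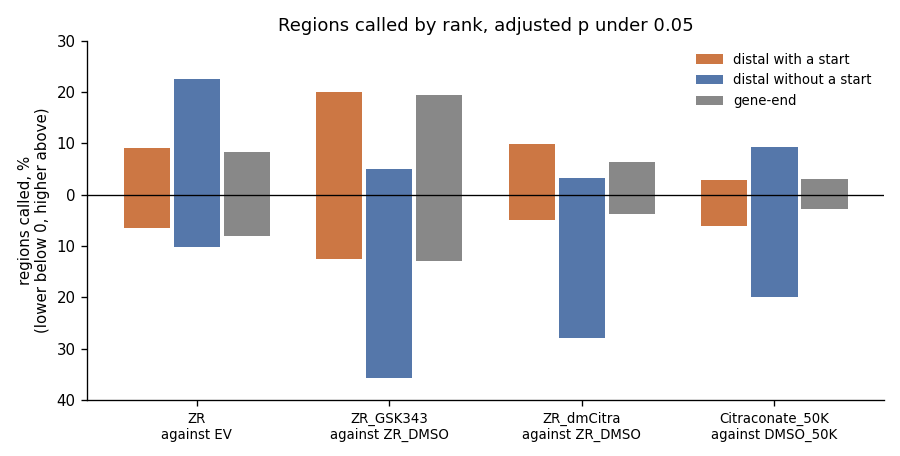
Percentage of regions called higher (above 0) or lower (below 0) by limma on ranks, adjusted p under 0.05 (y axis), in the 4 comparisons (x axis), for 389 start-bearing distal, 824 start-free distal and 3859 gene-end regions. Start-free regions are called lower in 35.8% with GSK343 and 27.9% with citraconate, both against ZR_DMSO, and in 19.9% in Citraconate_50K, and higher in 22.5% in ZR.

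In the second library series 88 distal regions were called higher and 188 lower in Citraconate_50K than in DMSO_50K, 22.8% together, while 4.04% of all 5072 regions were called higher and 5.9% lower, 9.94% together. The excess of lower calls was not seen with centred log2 fold (221 higher, 223 lower) or at 50% cover (18 higher, 9 lower of 101). The 276 calls dropped to 171 without Citraconate_50K replicate 1, 155 without replicate 2, 125 without DMSO_50K replicate 1 and 110 without its replicate 2. Start-free regions held 77 of the higher and 164 of the lower calls. Their median rank was 25.6 ± 2.01 in Citraconate_50K and 40.7 ± 0.857 in DMSO_50K, while that of start-bearing regions was 43.9 ± 1.12 in Citraconate_50K and 44.9 ± 0.948 in DMSO_50K (SD, n = 2 each). The region near Nova1, a neuronal splicing regulator gene, at chr12:46930829-46931889, ranked at 2.43 and 2.396 in Citraconate_50K against 92.4 and 91.3 in DMSO_50K (score difference -3.37 ± 0.236 SE, limma adjusted p = 2.89e-05). Near Rgmb, a BMP co-receptor gene, the ranks were 1.14 and 1.76 in Citraconate_50K against 91.995 and 94.2 in DMSO_50K. Near Sall3 they were 17.3 and 8.498 in Citraconate_50K against 96.2 and 95.1 in DMSO_50K, and inside Cdh26 2.43 and 0.513 in Citraconate_50K against 86.4 and 94.1 in DMSO_50K. These regions were named for the largest differences, so their low places in Citraconate_50K and high places in DMSO_50K are not a finding. The largest rises included start-free regions near Cerk, at 89.6 and 94.7 in Citraconate_50K against 9.17 and 7.29 in DMSO_50K, and near Cntnap2, at 91.3 and 88.8 in Citraconate_50K against 10.6 and 10.1 in DMSO_50K. As at Btbd16, the Cerk region was low in ZR, at 8.92 and 7.91, and higher in EV, at 66.4 and 64.7, and in ZR_DMSO, at 97.3 and 98.2.

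The DMSO_50K libraries carry an empty-vector label, and at many of the regions called between ZR and EV their ranks lay nearer to ZR. Regions called higher in ZR were chosen for higher ranks in ZR than in EV, and the part of that choice in the counts was not tested. Over all distal regions the median rank, averaged over 2 libraries, was 42.6 in DMSO_50K, 32.1 in Citraconate_50K and 34.1 in ZR_GSK343. It was 38.1 in ZR_dmCitra and 51.3 in ZR_DMSO. Of the 220 distal regions called higher in ZR, 175 (79.5%) ranked nearer to ZR than to EV in DMSO_50K, with a median of 62.6 there, 59.8 in ZR and 8.41 in EV. In Citraconate_50K, which carries the fusion label, 80 of the 220 did, with a median of 28.1. The counts were 176 in ZR_dmCitra, 175 in ZR_DMSO and 41 in ZR_GSK343, with a median of 15.01 in ZR_GSK343. Of the 109 called lower in ZR, 63 (57.8%) ranked nearer to ZR than to EV in DMSO_50K and 44 in Citraconate_50K. At Esrrg, where all 4 libraries of the second series were high, the ranks were 87.5 and 90.7 in Citraconate_50K and 87.1 and 92.8 in DMSO_50K. These counts cannot tell which cells the libraries of the second series hold, and that was not tested. The libraries are compared by their titles.

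Many distal regions were called in more than 1 comparison, here given only where the comparisons share no library. Of the 220 called higher in ZR than in EV, 134 (60.9%) were called lower in ZR_GSK343 than in ZR_DMSO, which is 39.0% of the 344 lower there, while 28.4% of all members were. Likewise, 91 of the 220 (41.4%) were called lower in Citraconate_50K, 48.4% of the 188 there, while 15.5% of all members were. Between ZR_GSK343 and Citraconate_50K, 137 regions were called lower in both, 39.8% of the 344 and 72.9% of the 188. In ZR_dmCitra, 19 of the 220 (8.64%) were called lower and 12 higher, against 20.5% and 5.28% of all members. Of the 109 called lower in ZR, with GSK343 8 (7.34%) were called higher and 16 (14.7%) lower, against 9.81% and 28.4% of all members. In Citraconate_50K 38 of the 109 (34.9%) were called higher, 43.2% of the 88 there, while 7.25% of all members were. In ZR_dmCitra 49 of the 109 (45.0%) were called lower, 19.7% of the 249 there, while 20.5% of all members were. Between the 2 citraconate comparisons, 68 of the 88 called higher in Citraconate_50K (77.3%) were called lower in ZR_dmCitra and 4 higher. Of the 188 called lower in Citraconate_50K, 39 (20.7%) were called lower in ZR_dmCitra and 4 (2.13%) higher. The shares of all members in ZR_dmCitra were 20.5% lower and 5.28% higher. Among the 220, the Nova1 region stood at 72.2 and 72.8 in ZR against 3.83 and 10.8 in EV, and at 1.46 and 1.63 in ZR_GSK343 and 41.1 and 57.5 in ZR_dmCitra against 69.8 and 79.02 in ZR_DMSO. These overlaps were not tested against chance, and all calls share 1 estimate of the spread.

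**Figure D5:**
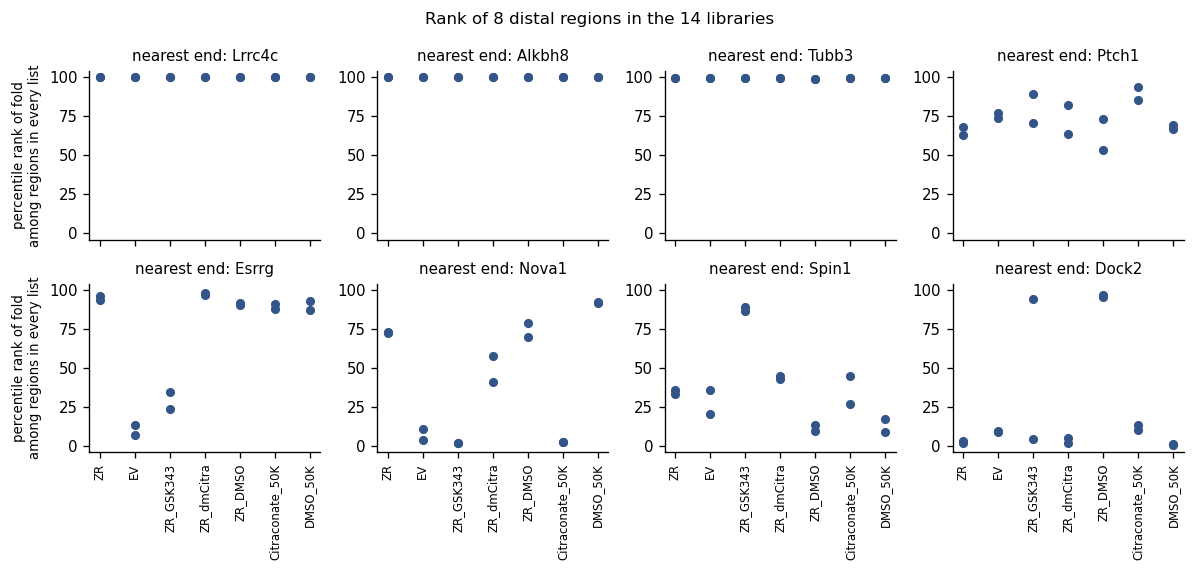
Percentile rank of fold among the 5072 regions in every list (y axis, 0 to 100) of 8 distal regions in the 14 libraries, by group (x axis), each panel titled by the gene with the nearest end. The Lrrc4c, Alkbh8 and Tubb3 regions stay near 100, the Nova1 region is at 2.43 or below in ZR_GSK343 and Citraconate_50K, and the Dock2 region is high in ZR_DMSO and ZR_GSK343 replicate 1 alone.

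Lists of neural, tumour-pathway and housekeeping genes held few members. Over 15 gene lists, 33 distal regions had a listed gene as the nearest, within 100 kb. None were found for the astrocyte, microglia and fusion-associated lists. Of the 33, 4 were called higher and 4 lower in ZR against EV, 1 higher and 11 lower in ZR_GSK343 and 1 higher and 2 lower in ZR_dmCitra against ZR_DMSO, and 2 higher and 7 lower in Citraconate_50K against DMSO_50K. The shares over all 5072 regions are those given above, and the lists are too short to set against them.

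Neural stem genes had 6 members, of which 0 were called between ZR and EV by limma (0 also had an unadjusted p under 0.05). The Ptch1 region, over an internal start of the Hedgehog receptor gene, ranked at 62.8 and 68.1 in ZR against 76.9 and 73.8 in EV, and between 53.4 and 93.8 over all libraries. Gli2, a transcription factor gene of the same pathway, held 2 regions. The outer one ranked at 17.4 and 20.5 in ZR_GSK343 and 79.9 and 81.8 in ZR_dmCitra against 77.1 and 79.02 in ZR_DMSO, and fell with GSK343 (limma adjusted p = 0.000772). The other fell in both, at 1.46 and 2.01 in ZR_GSK343 and 6.63 and 11.6 in ZR_dmCitra against 36.97 and 59.6 in ZR_DMSO. The region near Id4, an inhibitor of neural differentiation factors, fell with GSK343, at 22.7 and 4.35 in ZR_GSK343 against 53.4 and 54.7 in ZR_DMSO (limma adjusted p = 0.00508). Of the 6 members, 3 were called lower and 0 higher with GSK343. Ptch1 and Hes1 were not called and had higher mean ranks there. Ptch1 was at 70.96 and 89.2 in ZR_GSK343 against 53.4 and 73.6 in ZR_DMSO. Hes1 was at 45.4 and 36.6 in ZR_GSK343 against 36.97 and 0.197 in ZR_DMSO. In Citraconate_50K the Gli3 region fell, at 1.76 and 15.4 in Citraconate_50K against 52.2 and 64.6 in DMSO_50K (limma adjusted p = 0.0107). The members near Mog and Mbp, genes of myelin, were called lower with GSK343 than in ZR_DMSO. For Mog the ranks were 5.84 and 5.51 in ZR_GSK343 against 65.1 and 43.6 in ZR_DMSO, with 26.95 and 30.7 in ZR.

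NF-kB genes had 5 members, and 2 were called higher in ZR. The region nearest to Cxcl10, a chemokine gene and NF-kB target, lay inside another gene at 18964 bp from Cxcl10 and ranked at 58.6 and 58.4 in ZR against 4.71 and 11.5 in EV (score difference 1.65 ± 0.257 SE, limma adjusted p = 0.00127). It was lower with GSK343, at 9.01 and 21.5 in ZR_GSK343 against 65.1 and 67.3 in ZR_DMSO, and lower in Citraconate_50K, at 17.3 and 13.5 in Citraconate_50K against 53.7 and 48.95 in DMSO_50K. Near Vcam1, an adhesion molecule gene, the ranks were 43.03 and 24.2 in ZR against 6.595 and 4.54 in EV (limma adjusted p = 0.0295). The members in Nfkb2 and Nfkbiz, which encode an NF-kB subunit and an inhibitor of the pathway, and the one near Bcl3, a co-regulator of NF-kB, were not called in ZR. With treatment the members went both ways. In Citraconate_50K Vcam1 was called lower, at 17.3 and 19.7 against 61.6 and 62.0 in DMSO_50K. Nfkb2 was called higher there, at 62.2 and 63.2 against 40.1 and 22.2 in DMSO_50K. Bcl3 was called higher in ZR_dmCitra, at 47.9 and 45.7, and lower in ZR_GSK343, at 3.22 and 2.38, against 9.78 and 25.4 in ZR_DMSO.

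Other lists held 1 to 4 members each. Near Phf19, a Polycomb accessory gene, the region ranked at 5.74 and 15.5 in ZR against 74.8 and 69.3 in EV (limma adjusted p = 0.00135), and inside Jarid2, another such gene, it ranked at 69.5 and 64.7 in ZR against 98.8 and 99.1 in EV (limma adjusted p = 0.000295). The Jarid2 region was 453 or 454 bp wide in every library. As at Btbd16 and Mc2r, it was high in the groups with the lower median folds. Its ranks were 99.2 and 99.3 in ZR_GSK343, 99.2 and 99.2 in ZR_DMSO and 99.1 and 99.2 in Citraconate_50K. They were 90.8 and 96.6 in ZR_dmCitra, called lower than ZR_DMSO, and 92.9 and 84.0 in DMSO_50K, with Citraconate_50K called higher. The part of overall signal in these ranks was not tested. A region 88.4 kb from Myc, the growth regulator, fell in ZR, at 49.7 and 51.95 in ZR against 74.8 and 78.1 in EV, and with GSK343, at 22.7 and 34.1 in ZR_GSK343 against 65.1 and 67.3 in ZR_DMSO. The Rfx3 region, over a start of a ciliogenesis factor gene, rose in ZR, at 90.9 and 86.8 in ZR against 62.7 and 56.4 in EV (limma adjusted p = 0.0108). Of the citric acid cycle genes, the Idh2 region fell in Citraconate_50K, at 1.14 and 3.89 in Citraconate_50K against 32.7 and 30.4 in DMSO_50K (limma adjusted p = 0.00104). The Idh1 region was not called in any of the 4 comparisons, at 75.4 and 74.5 in ZR against 52.6 and 48.9 in EV. The Stag1 region, over a start of a cohesin subunit gene, was not called either and ranked between 66.6 and 94.7 in the 14 libraries.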

How the data were processed

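ATAC-seq of 14 mNSC libraries (50000 cells each) was deposited as 1 peak list per library. The submitters' processing notes name mm10, BWA, SAMtools and Picard, with no version. Peaks were called per library with MACS2, going by the names the deposited files give them; neither its settings nor any Tn5 shift is stated. For each peak the authors deposited a fold enrichment (a ratio to background), a score, −log10 values of p and q, and a summit offset. Read counts are not among these columns, so that depth is unknown and no interval is given. Fold values come in steps, so ranks contain ties.

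Regions were merged and placed as given above, with RefSeq genes and start windows of GRCm38.p6 (the coordinates of mm10); 798 of 798 overlapping window pairs of opposite strand read as reverse complements. The tallest peak by fold stood for a library in a region. Two-sided exact permutation tests compared library medians, and normal scores of ranks by limma 3.58.1 in R 4.3.3 over all 14 libraries, checked on simulated data. Regions are named by the nearest end of a protein-coding gene. Named were the 8 with the highest minimum percentile, the 5 widest, up to 5 higher and 5 lower per comparison with groups that did not overlap, up to 3 per gene list, and those holding a microRNA. The division by start windows, the overlaps, the label check, and the values of Gli3, Hes1, Vcam1, Bcl3 and the second Gli2 region were added after values were seen. The members and lists were chosen with earlier results of these data known. Alternatives were other distances, coverage, list lengths, q minimum, scaling, library sets, ZR as control, the replicate block and each library left out. A named region is not reported here.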

Additional observations from a re-analysis of the deposited data

Results flagged for a closer look

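Values taken from whole lists pointed in opposite directions in the 2 citraconate comparisons, in each library of both, but these lists differ in length and ranks taken in them show no change of the regions. The distal regions' median percentile within the whole list was higher by 15.8 in ZR_dmCitra than in ZR_DMSO and differed by -6.27 between Citraconate_50K and DMSO_50K. On the log2 scale their median width was higher by 1.76 in ZR_dmCitra than in ZR_DMSO and differed by -0.33 between Citraconate_50K and DMSO_50K. The difference between the comparisons was not tested. The ZR_DMSO lists were the shortest pair, at 12554 and 21143 peaks, and in the second library series the citraconate and control libraries also carry different cell line labels. By rank among the 5072 regions in every list the difference of the medians was -13.2 in ZR_dmCitra against ZR_DMSO and -10.5 in Citraconate_50K against DMSO_50K. The medians thus did not point in opposite directions there, but many single regions did. Of the 88 called higher in Citraconate_50K, 68 (77.3%) were called lower in ZR_dmCitra, while 20.5% of all members were. With lists cut to equal length, the percentile difference of Citraconate_50K against DMSO_50K was 4.16.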

How the results depend on the processing

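The number of members depended on how presence was defined. It was 101 where a peak had to cover 50% of the region, 542 with lists cut to equal length, 2170 over the 12 lists without ZR_DMSO, and 1213 to 1702 with 1 library left out.

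With peaks covering 50% of the region, the difference in median list percentile turned round to -4.81 in ZR against EV, -2.46 in ZR_dmCitra against ZR_DMSO and 2.34 in Citraconate_50K against DMSO_50K, and the log2 difference in median width to -0.045 in ZR against EV and 0.070 in Citraconate_50K against DMSO_50K. With lists of equal length the percentile difference was -0.177 in ZR against EV, -2.38 in ZR_GSK343 against ZR_DMSO and 4.16 in Citraconate_50K against DMSO_50K. By rank within the 5072 regions it was -17.2 in ZR_GSK343 and -13.2 in ZR_dmCitra against ZR_DMSO. With ZR in place of ZR_DMSO it was -6.84 in ZR_GSK343 and -0.314 in ZR_dmCitra, and the log2 width difference of ZR_GSK343 was -0.677. The difference in summit spread between distal and gene-end regions passed the threshold at 50% cover (log2 -3.14, exact sign-flip p = 0.0156) and with equal lists (log2 -0.253, exact sign-flip p = 0.0313). The percentile difference of distal and gene-end regions did so without ZR_DMSO (-4.83, exact sign-flip p = 0.0313).

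Of the calls by limma, ZR against EV gave 498 from centred log2 fold, 592 from its own 4 libraries, 594 with array weights, 44 at 50% cover (13 higher, 31 lower), 543 without the ZR_DMSO and ZR_GSK343 libraries (chosen after seeing the data), and 147 to 179 with 1 library left out. ZR_GSK343 against ZR_DMSO gave 0 from its own 4 libraries, 149 with array weights, 18 at 50% cover and 439 to 570 with 1 library left out; centred log2 fold gave 59 higher and 389 lower. ZR_dmCitra against ZR_DMSO gave 183 from its own 4 libraries, 48 at 50% cover, 4 against ZR, 193 over members with no other within 20 kb (chosen after seeing the data), 125 without ZR_dmCitra replicate 1 and 357 without ZR_DMSO replicate 2. Citraconate_50K against DMSO_50K gave 444 from centred log2 fold (221 higher, 223 lower), 428 with array weights, 27 at 50% cover, 519 without the ZR_DMSO and ZR_GSK343 libraries, 110 without DMSO_50K replicate 2 and 171 without Citraconate_50K replicate 1. The cause was not tested.

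With ZR in place of ZR_DMSO the score difference of ZR_dmCitra turned round to 0.099 near Dock2, 0.417 and 0.059 at 2 regions near Sfi1, 0.053 near Aadac and 0.434 near Gtf2ird1. Of 438 values of named regions under alternatives, 397 kept direction and side of the threshold, and 36 lost the call. Libraries of the same replicate number did not deviate together (correlations of 0.027, 0.037, -0.015 and -0.033), so the numbers were not taken as pairs; with the replicate block the counts were 321, 463, 310 and 270. Depth is unknown, so how far it limits these values was not tested.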
